A study of Rattus norvegicus with 24 samples.

Results

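Gpd1 (ENSRNOG00000056457) encodes the cytosolic, NAD-dependent glycerol 3-phosphate dehydrogenase, and its counts were examined as 1 gene of 32883 listed in the files of primary rat oligodendroglial cells. The gene was chosen by earlier results of these libraries, in which it was higher in vehicle-treated oligodendrocytes (OLs) than in their precursors and lower after dolutegravir, so every comparison of Gpd1 that shares libraries with that choice is described here without a test. RNA was sequenced from 6 conditions with 4 libraries each, 24 in all. Oligodendrocyte precursor cells (OPCs) were harvested at the end of a 24 hour proliferation period and OLs after a further 72 hours in differentiation medium, in both cases untreated, exposed to the vehicle DMSO at 0.04%, or exposed to 8 µM dolutegravir (DTG), an antiretroviral drug that blocks the integrase of HIV. The cells came from cortices of Sprague Dawley rat pups at postnatal day 0 to 4, were purified by shaking from mixed glial cultures, and were switched from a growth factor medium to a differentiation medium, so stage, medium and time in culture cannot be told apart. According to the paper, replicates came from independent litters. Libraries of the same replicate number share a date and letter in their library names across conditions, and such a set is called a culture below.

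Gpd1 reduces dihydroxyacetone phosphate, an intermediate of glycolysis, to glycerol 3-phosphate and oxidizes NADH in the same step. Glycerol 3-phosphate is the backbone from which phospholipids and triglycerides are built, and with the mitochondrial enzyme Gpd2 it carries reducing equivalents of the cytosol to the respiratory chain. In the brain the enzyme has long been used as a marker of the oligodendrocyte lineage and is known to be induced by glucocorticoids.

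In the 22 files that share 1 annotation, Gpd1 lies on the plus strand of chromosome 7 from 141370491 to 141377928, in 8 exons with 2871 exonic bases, of which the last exon runs from 141376072 to 141377928. The submitters' processing notes name the build Rnor_6.0. For replicate 3, the untreated OPC and untreated OL libraries were counted on another annotation of 30560 genes, which places Gpd1 at 130844138 to 130851529 with 3574 exonic bases and whose build was not given in the sources used here. No other gene model overlapped Gpd1 in the larger group of files. The neighbours on either side were 3759 bases before it (ENSRNOG00000061572) and 2394 bases after it (ENSRNOG00000061425). Each library held 13241279 to 18499994 gene counts, of which Gpd1 took between 53 and 839.

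Gpd1 was low in OPCs and high in OLs, and among OLs it was highest with DMSO and lowest with DTG. Levels are given in CPM, a gene's share of the library's counts, expressed per 10 to the power 6 and taken after scaling with edgeR's TMM factors over the 21651 identifiers found in every file. In untreated OPCs the 4 cultures held 4.34, 8.05, 5.85 and 8.65 CPM, in order of replicate number, with a mean of 6.72 ± 1.99 (SD, n = 4). In DMSO-treated OPCs they held 4.17, 9.09, 4.45 and 7.44 CPM, with a mean of 6.29 ± 2.38. In DTG-treated OPCs they held 2.81, 5.78, 8.25 and 6.08 CPM, with a mean of 5.73 ± 2.24. The 3 OPC groups overlapped, and culture 1 was the lowest in each of them.

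In untreated OLs the cultures held 45.6, 38.7, 24.6 and 39.5 CPM of Gpd1, with a mean of 37.1 ± 8.87 (SD, n = 4), or 41.2 ± 3.78 in the 3 cultures of the larger annotation. In DMSO-treated OLs they held 58.2, 57.0, 36.0 and 62.9 CPM, with a mean of 53.5 ± 11.9. In DTG-treated OLs they held 26.5, 26.0, 19.9 and 21.4 CPM, with a mean of 23.4 ± 3.31. Culture 3 was the lowest in each OL group, also in the DMSO-treated and DTG-treated libraries, whose files share the annotation of the other cultures. Every OL library lay above every OPC library. Neighbouring groups in this order overlapped at every step except between DTG-treated OLs and untreated OPCs.

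**Figure D1:**
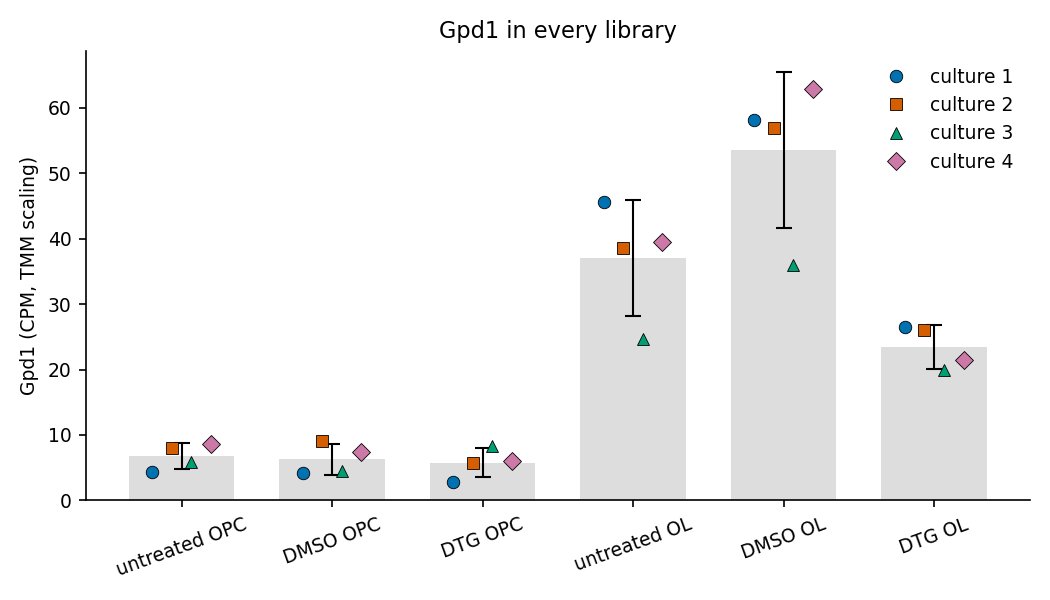
Gpd1 in CPM (TMM scaling) in the 6 conditions. Bars are means, error bars are SD over 4 libraries and symbols are cultures; the 12 OPC libraries sit between 2.81 and 9.09 CPM, and the 12 OL libraries between 19.9 and 62.9 CPM.

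Per kilobase of exon, the mean level of Gpd1 was 2.19 CPM in DMSO-treated OPCs, 18.6 in DMSO-treated OLs and 8.17 in DTG-treated OLs. Ranked on this length-corrected scale against genes above 1 CPM, 17.2% of genes were lower than Gpd1 in DMSO-treated OPCs. In DMSO-treated OLs 62.9% were lower, and in DTG-treated OLs 45.3%. In these cultures Gpd1 therefore moved from among the weakly expressed genes of OPCs to the middle of the range in OLs.

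Untreated cells allowed a test of the stage difference in libraries other than those that chose the gene, although the untreated libraries carry the same 4 culture names as the DMSO-treated ones and so are not separate cultures. Gpd1 rose in untreated OLs against untreated OPCs by 2.46 on the log2 scale (standard error, SE, 0.29, 95% confidence interval 1.81 to 3.11), and the quasi-likelihood F test of edgeR gave an adjusted p-value of 0.000220 (Benjamini-Hochberg, 12158 genes). It was higher in 4 of 4 cultures, by ratios of 10.5, 4.80, 4.20 and 4.56. A gene was called when its adjusted p-value was under 0.05 and its absolute log2 fold change over 1, and 24.9% of genes were called in this comparison, 11.5% as higher and 13.4% as lower. The split of 1404 higher and 1626 lower genes depended on the scaling, and was 381 and 3757 with ERCC scaling and 1001 and 2420 with scaling to total gene counts. The rise of Gpd1 was called in each of the 8 fits that left out 1 library, with log2 fold changes between 2.30 and 2.61.

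The same difference was larger with DMSO and smaller with DTG, as a description. DMSO-treated OLs exceeded DMSO-treated OPCs by 3.13 on the log2 scale (SE 0.29), with ratios of 13.9, 6.27, 8.09 and 8.46 in the cultures. DTG-treated OLs exceeded DTG-treated OPCs by 2.03 (SE 0.29), with ratios of 9.44, 4.50, 2.41 and 3.52. In the stage comparisons with DMSO and with DTG, 32.6% and 39.3% of genes were called. Culture 1, with the lowest OPC levels, had the highest ratio under each treatment. With ERCC scaling, culture 3 went the other way with DMSO and with DTG. It then held 10.6 CPM in OLs against 13.1 in OPCs with DMSO, and 14.2 against 23.3 with DTG. In culture 3, ERCC counts made up 7.19% of the DMSO-treated OL library, the highest share of all. They made up 1.06% and 1.09% of the DMSO-treated and DTG-treated OPC libraries.

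Against DMSO-treated OLs, DTG-treated OLs had 0.455, 0.457, 0.551 and 0.340 times the Gpd1 level in cultures 1 to 4 with TMM scaling, so the level was lower by 54.5%, 54.3%, 44.9% and 66.0%. The groups did not overlap. The fitted log2 fold change was -1.21 (SE 0.19), with a range of -1.36 to -1.10 over the 8 fits that each omit 1 library. With ERCC scaling the groups overlapped, and culture 3 went the other way, at 14.2 CPM with DTG against 10.6 CPM with DMSO. That DMSO-treated library had the highest ERCC share of all, 7.19% of its counts, against 2.19% to 3.99% in the other DMSO-treated OLs. The reversal thus rests on 1 library. In this comparison 0.582% of 12710 genes were called, 74 in all, with 0.37% higher and 0.212% lower, and 19 with ERCC scaling, all higher; Gpd1 was chosen for this difference, so nothing is read from its place among them. Libraries of bulk cells do not separate fewer cells of a type from less RNA per cell, and this holds for every difference given here.

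Untreated OLs put the DMSO-treated OLs in context. With TMM scaling Gpd1 was higher in DMSO-treated than in untreated OLs in 4 of 4 cultures, by ratios of 1.28, 1.47, 1.46 and 1.59 (log2 fold change 0.50, SE 0.22), while the groups overlapped. In DTG-treated OLs it was lower than in untreated OLs in 4 of 4 cultures, at 0.582, 0.673, 0.807 and 0.543 times the level (log2 fold change -0.66, SE 0.20), and these groups overlapped too. The untreated library of culture 3 was counted on another annotation. Without it the log2 fold change of DTG-treated against untreated OLs was -0.82 and that of DMSO-treated against untreated OLs was 0.35. With TMM scaling the difference between DTG and vehicle was thus larger than that between DTG and no treatment, and the comparisons share libraries. With ERCC scaling, mean Gpd1 levels were 37.3 CPM in DMSO-treated, 33.4 in untreated and 20.3 in DTG-treated OLs, and neighbouring groups overlapped. Gpd1 was then lower with DTG than without treatment in each culture. It was higher with DMSO than without treatment in cultures 1 and 2, but lower in cultures 3 (10.6 against 15.8 CPM) and 4 (40.5 against 54.6 CPM). The DMSO-treated library of culture 3 is the one with 7.19% ERCC counts. Of all genes, 0.277% were called between DTG-treated and untreated OLs and 0% of 11893 between DMSO-treated and untreated OLs, the latter with 891 at an unadjusted p-value under 0.05 in edgeR's test and 0 called by DESeq2's Wald test. ERCC scaling called 63 genes between DMSO-treated and untreated OLs, all lower. The 33 genes called between DTG-treated and untreated OLs became 5 without DTG-treated replicate 1, 107 with the replicate block and 106 with DESeq2.

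**Figure D2:**
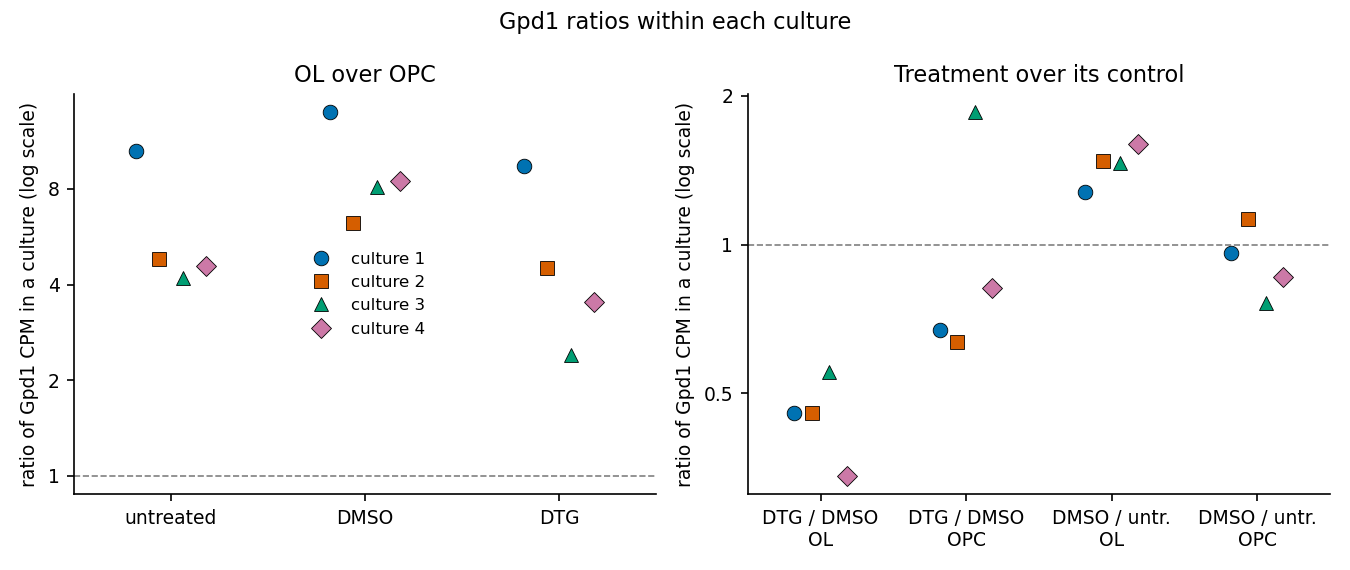
Ratio of Gpd1 CPM between 2 libraries of the same culture on a log axis, OL over OPC under each treatment (left) and treatment over its control at each stage (right), with a symbol per culture and a dashed line at a ratio of 1. The DTG over DMSO ratio lies between 0.340 and 0.551 in OLs and between 0.635 and 1.85 in OPCs; the untreated libraries of culture 3 were counted on another annotation.

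In OPCs the levels of Gpd1 with DTG and with DMSO overlapped. The DMSO-treated OPCs were part of the choice of the gene, so this comparison is a description too. The ratio of Gpd1 in DTG-treated over DMSO-treated OPCs was 0.673, 0.635, 1.85 and 0.817 in the 4 cultures, lower in 3 and higher in 1. The fitted log2 fold change was -0.12 (SE 0.37). Whether the responses of OPCs and OLs differ was not tested, because the OL response chose the gene. Between DMSO-treated and untreated OPCs, which also overlapped, the fitted value was -0.10 (SE 0.34). Across all genes, 0 were called in both comparisons, 0% of 13270 and 0% of 12182 tested, with 69 and 73 genes at an unadjusted p-value under 0.05 in edgeR's test and 0 called by DESeq2's Wald test.

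The scale of these values depends on what the libraries are held equal on. ERCC transcripts are synthetic RNAs that were added to total RNA brought to equal amounts before library preparation. They took between 1.06% and 7.19% of a library's counts, with the highest share in the DMSO-treated OLs of culture 3. Scaled to them, the median change of all genes became -1.002 on the log2 scale between untreated OLs and untreated OPCs, and Gpd1 still rose by 1.67 (SE 0.58, adjusted p = 0.0366 in edgeR's test), 2.67 above that median against 2.56 above it with TMM. Between DTG-treated and DMSO-treated OLs the median became 0.59 and the log2 fold change of Gpd1 -0.70 (SE 0.56), 1.29 below the median against 1.22 below it with TMM. A change of scaling moves all genes of a library together. These distances from the median therefore stay close by construction and are no check of Gpd1. In DTG-treated OPCs against DMSO-treated OPCs the sign turned, at 0.41 (SE 0.54) beside a median of 0.38. Under this scaling every pair of neighbouring groups overlapped, and DTG-treated OPCs had the highest mean of the OPC groups.

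**Figure D3:**
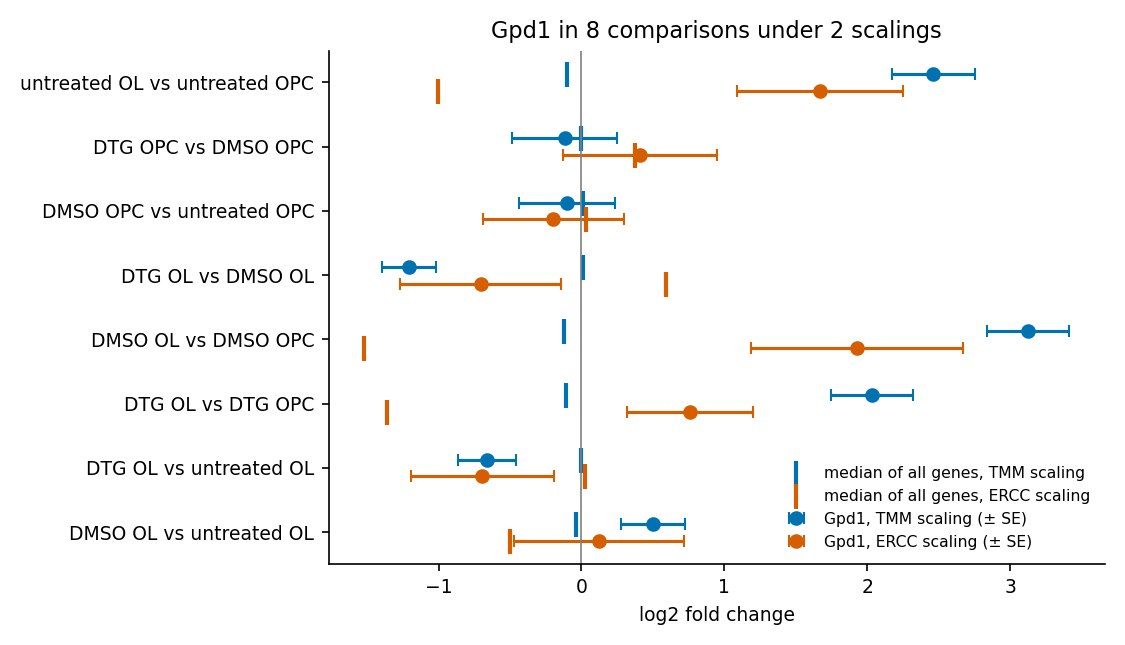
Log2 fold change of Gpd1 (points, ± SE) and the median of all genes tested (vertical ticks) in the 8 comparisons, with TMM scaling and with ERCC scaling. In untreated OLs against untreated OPCs the distance of Gpd1 from the median was 2.56 and 2.67, while both values shift. Scaling moves all genes of a library together, so this distance stays close by construction.

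Enzymes around glycerol 3-phosphate could be followed only in part, because symbols were available for 2107 identifiers, nearly all of them genes that the study itself called in these samples. Of 162 genes in the lists of related pathways and cell types, 19 had an identifier, and the others were not analysed here. Counts for these genes are therefore not independent evidence of a direction. Of the 6 glycerol 3-phosphate enzymes, Gpd1 was the 1 member that could be matched.

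Pfkl, the liver-type subunit of phosphofructokinase, acts upstream of Gpd1 at the committed step of glycolysis and moved in the same directions. It rose from 74.9 ± 21.2 CPM in untreated OPCs to 245 ± 105 CPM in untreated OLs (SD, n = 4), a log2 fold change of 1.71 (SE 0.33) with an adjusted p-value of 0.00366 in edgeR's test. In DMSO-treated OLs the cultures held 187, 393, 333 and 221 CPM, and in DTG-treated OLs 114, 170, 124 and 83.6 CPM, lower in 4 of 4 cultures. The groups did not overlap. The log2 fold change was -1.21 (SE 0.25, adjusted p = 0.0348 in edgeR's test), a call that held in 2 of 8 fits with a library left out.

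Pck2, the mitochondrial enzyme that makes phosphoenolpyruvate from oxaloacetate, rose where Gpd1 was lower. The study placed both in its category of NADH oxidation. Pck2 held 12.04, 8.84, 18.6 and 13.9 CPM in DMSO-treated OLs and 67.8, 22.6, 29.8 and 31.8 CPM in DTG-treated OLs, again without overlap. Its log2 fold change was 1.51 (SE 0.32, adjusted p = 0.0437 in edgeR's test), called in 2 of 8 fits with a library left out. Between untreated OPCs and untreated OLs Pck2 rose by 1.10 (SE 0.38, adjusted p = 0.0443), a call that held in 2 of 8 fits with a library left out. It was also lost with total or ERCC scaling, with no filter on low counts and without the untreated libraries of replicate 3, where the value was 0.57. The study's category of gluconeogenesis holds Gpd1 and Pck2 with Atf3 and Atf4, transcription factors of the stress response. Atf3 rose in DTG-treated OLs by 1.96 (SE 0.25, adjusted p = 0.00272) and Atf4 by 1.12 (SE 0.16, adjusted p = 0.00512 in edgeR's test), so the members of that category did not share a direction. With ERCC scaling the rises of Pfkl (0.70) and Pck2 (0.19) between the untreated stages were not called, nor were Pfkl (-0.72), Pck2 (2.17) and Atf4 (1.74) between DTG-treated and DMSO-treated OLs.

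Lpin3, Slc25a13, Slc16a7 and Agps come from separate lists of enzymes and transporters around glycerol 3-phosphate. Between the untreated stages Lpin3, Slc25a13 and Slc16a7 were called lower, and Agps was not called. Of all genes 13.4% were called lower, which is no background for genes matched through the study's own calls. Lpin3, a phosphatidate phosphatase on the way to diacylglycerol, fell by 3.48 on the log2 scale between untreated OPCs and untreated OLs (SE 0.50, adjusted p = 0.000662 in edgeR's test). Slc25a13, the aspartate and glutamate carrier of the malate-aspartate shuttle, which is the other route for cytosolic NADH, fell by 1.04 (SE 0.35, adjusted p = 0.0430), a call that held in 2 of 8 fits with a library left out. The call was lost with DESeq2 (-0.994) and with the replicate block (-0.998), which fell just short of the fold threshold. It was also lost with no filter on low counts (-1.03) and without the untreated libraries of replicate 3, where the change was -0.74. Slc16a7, a monocarboxylate transporter, fell by 1.81 (SE 0.41, adjusted p = 0.00781). Its counts were low, 18 to 31 in untreated OPC libraries and 3 to 10 in untreated OL libraries. Agps, an enzyme of ether lipid synthesis, had a log2 fold change of -0.83 (SE 0.39, adjusted p = 0.117), which was -1.99 with ERCC scaling and then called (adjusted p = 0.0264 in edgeR's test). It was -0.26 without the untreated libraries of replicate 3 and -0.33 without the untreated OPC library of replicate 3, which held 42.2 CPM of Agps against 13.1 to 19.6 in the other cultures. On the larger annotation, DMSO-treated OPCs of culture 3 held 37.3 CPM, and DTG-treated OPCs of cultures 2 and 3 held 43.1 and 35.2 CPM. The remaining DMSO-treated and DTG-treated OPC libraries held 8.92 to 26.9 CPM, so high Agps was not limited to the untreated library. Agps fell in the stage comparisons with DMSO, by 1.19 (SE 0.37, adjusted p = 0.0170), and with DTG, by 1.62 (SE 0.35, adjusted p = 0.00203). In DTG-treated against DMSO-treated OLs, none of Agps, Lpin3 and Slc25a13 was called by edgeR's test, beside 0.582% of all genes, and Slc16a7 had too few counts to be tested.

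Fkbp5 and Zbtb16, genes that glucocorticoids are known to induce in many cells, went the opposite way to Gpd1 between the stages. Fkbp5 held 80.5 ± 20.4 CPM in untreated OPCs and 8.91 ± 2.38 CPM in untreated OLs (SD, n = 4), and fell by 3.18 on the log2 scale (SE 0.27, adjusted p = 4.03e-05 in edgeR's test). Zbtb16 fell by 3.51 (SE 0.31, adjusted p = 4.89e-05). Between DTG-treated and DMSO-treated OLs the log2 fold change of Fkbp5 was -0.42 (SE 0.22, adjusted p = 0.454). The other 9 genes of that list were not analysed here.

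**Figure D4:**
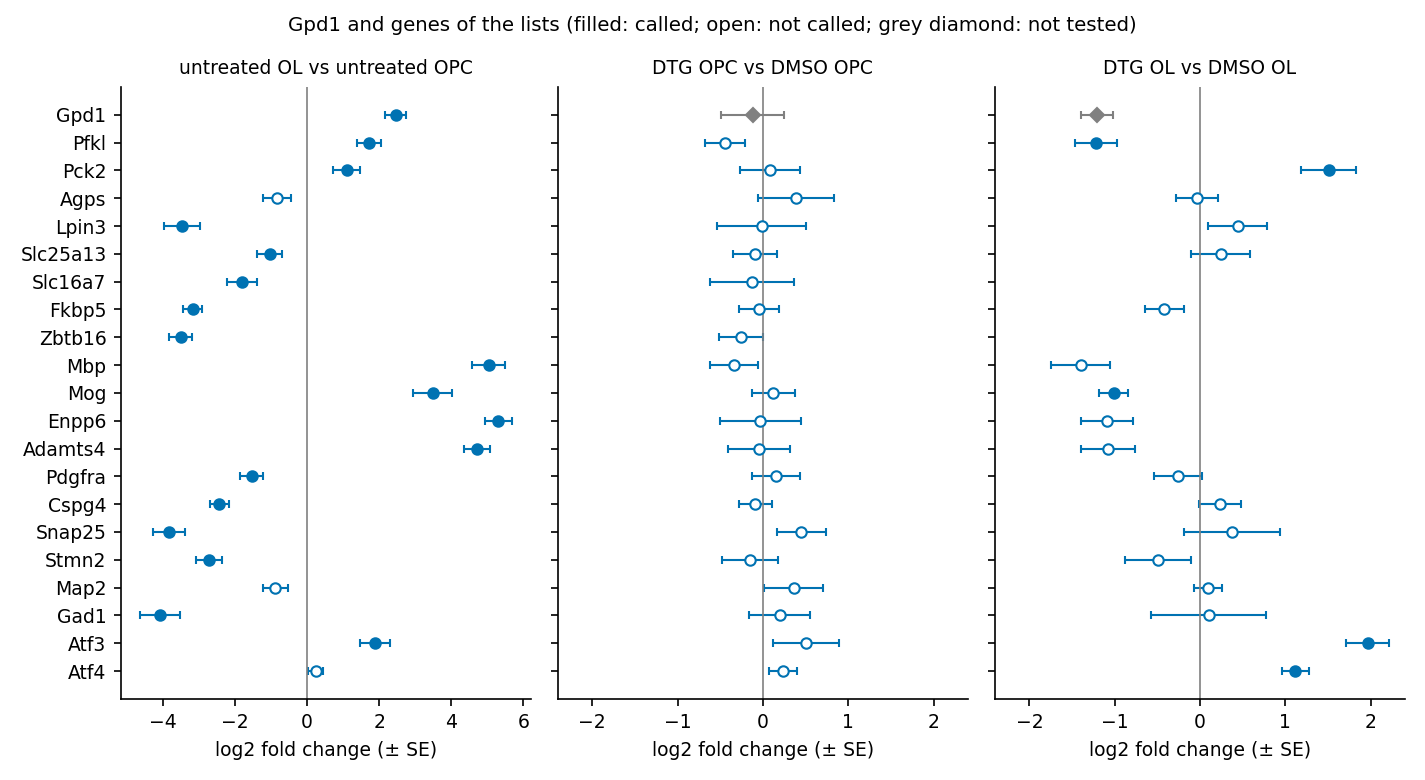
Log2 fold change ± SE of Gpd1 and the genes of the lists in 3 comparisons. Filled circles were called, open circles were not, and the grey diamonds of Gpd1 with DTG are descriptions without a test; Gpd1 and Pfkl lie right of 0 in differentiation and left of 0 with DTG in OLs, and none of the genes tested was called in OPCs.

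Between the untreated stages, oligodendrocyte markers rose with Gpd1 and precursor markers fell. Of the 21 oligodendrocyte markers 4 could be matched, and all 4 rose between untreated OPCs and untreated OLs. Of all genes 11.5% were called higher. That share is no background for these markers, because nearly all genes with a symbol had been called by the study in these samples. Myelin basic protein, encoded by Mbp and the most abundant of the 4, rose by 5.03 (SE 0.46) and Mog, a protein of the outer myelin surface, by 3.49 (SE 0.55). Enpp6, an early differentiation marker, rose by 5.31 (SE 0.38) and Adamts4, a protease of mature oligodendrocytes, by 4.72 (SE 0.37). The precursor markers Pdgfra and Cspg4, 2 of 8 on their list, fell by 1.54 (SE 0.32) and 2.44 (SE 0.27). Of all genes 13.4% were called lower, again no background for genes matched in this way. Adjusted p-values of these 6 genes in edgeR's test lay at or under 0.00502. In the untreated OPC library of replicate 3, Mog had 6 counts against 62 to 86 in the other cultures.

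Between DTG-treated and DMSO-treated OLs the summed level of the 4 oligodendrocyte markers was 7906, 12088, 10828 and 4552 CPM with DMSO and 2601, 4521, 4605 and 1855 CPM with DTG, in cultures 1 to 4. Mog fell by 1.01 (SE 0.17, adjusted p = 0.0116 in edgeR's test), a call held in 2 of 8 fits with a library left out and lost with ERCC scaling (-0.44). Mbp had a log2 fold change of -1.40 (SE 0.34, adjusted p = 0.0865), Enpp6 one of -1.09 (SE 0.30, adjusted p = 0.123) and Adamts4 one of -1.08 (SE 0.31, adjusted p = 0.136). With the replicate number as a block these 3 were called, with adjusted p-values of 1.09e-06, 1.02e-05 and 1.01e-05, Mog fell just short of the fold threshold, and 173 genes were called in place of 74. The log2 fold change of Gpd1 with the block was -1.19 (SE 0.16). The precursor markers Pdgfra, at -0.26 (SE 0.28, adjusted p = 0.747), and Cspg4, at 0.24 (SE 0.25, adjusted p = 0.735), were not called by edgeR's test in this comparison. The 4 oligodendrocyte markers could be matched because the study had called them in these libraries. The part of the marker levels in the difference of Gpd1 was not tested.

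Genes listed as neuronal markers were counted in the same libraries. The 4 matched of 8 were Snap25, Stmn2, Map2 and Gad1, with Map2 the most abundant and none at 0 in any library, and their sum lay between 163 and 363 CPM in untreated OPCs and between 74.6 and 173 CPM in untreated OLs. Between these stages Snap25 fell by 3.82 (SE 0.45, adjusted p = 0.000217), Stmn2 by 2.72 (SE 0.36, adjusted p = 0.000398) and Gad1 by 4.09 (SE 0.56, adjusted p = 0.000519 in edgeR's test), each also in the 8 fits with a library left out, while Map2 had a log2 fold change of -0.88 (SE 0.34, adjusted p = 0.0659). Snap25, Stmn2 and Gad1 thus fell where Gpd1 rose. The comparison called 13.4% of all genes lower, which is no background for genes matched through the study's own calls. Which cells these transcripts came from was not tested. The part of these markers in the difference of Gpd1 was not tested. In DMSO-treated and DTG-treated OLs the sums were 94.5 ± 14.5 and 99.6 ± 17.5 CPM (SD, n = 4). None of the 4 was called by edgeR's test between these groups, where 0.582% of all genes were, so that count says nothing about these markers. No astrocyte, microglia, fibroblast or vascular marker could be matched to an identifier, so these cells were not analysed here.

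Of the 4 nearest gene models beside Gpd1 on chromosome 7, none was called with DTG in OLs by edgeR's test, a comparison in which 0.582% of all genes were called. ENSRNOG00000061572, the neighbour before it, had a log2 fold change of -0.21 (SE 0.24, adjusted p = 0.514) between untreated OLs and untreated OPCs and of -0.05 (SE 0.13, adjusted p = 0.900) between DTG-treated and DMSO-treated OLs. The gene before that one, ENSRNOG00000059765, at 15554 bases from Gpd1, rose by 1.29 between the untreated stages (SE 0.28, adjusted p = 0.00632). With DTG in OLs it was at -0.26 (SE 0.19, adjusted p = 0.600 in edgeR's test). ENSRNOG00000061425, the neighbour after Gpd1, is not among the identifiers tested in untreated cells. It rose in the stage comparison with DTG by 1.04 (SE 0.16, adjusted p = 0.000252), and with DMSO it had a log2 fold change of 0.94 (SE 0.24, adjusted p = 0.00590), short of the fold threshold. The last of the 4, on the minus strand and 8463 bases after Gpd1, was not called in any comparison of stages. Its log2 fold change was 0.48 (SE 0.20, adjusted p = 0.0888 in edgeR's test) between the untreated stages. With DMSO it was 0.62 (SE 0.20, adjusted p = 0.0219) and with DTG 0.54 (SE 0.17, adjusted p = 0.0180), both short of the fold threshold.

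Likeness to Gpd1 was measured as Pearson's r of log2 CPM, as a description over libraries that share culture names and are separated by stage. Over the 22 libraries of the larger annotation, the 10 most similar of 12466 genes had r between 0.96 and 0.98. Named genes among them were Kif19, a kinesin, at 0.98 and Pgf, placental growth factor, at 0.97, and 8 had no symbol. Named genes among the 5 most opposite were Ccdc34, Rbl1, a relative of the retinoblastoma protein, Tyms, thymidylate synthase, and Fbn2, a fibrillin, each at -0.96. These values mostly repeat the separation of OLs from OPCs.

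Within the 11 OL libraries of that annotation the order of genes was another. The 10 most similar of 12335 genes, with r between 0.93 and 0.97, had no symbol. The 5 most opposite were Mdfic at -0.95, Gbp5, an interferon-inducible GTPase, at -0.92, Slc7a11, the cystine and glutamate exchanger, at -0.92, Tstd3 at -0.92 and Mt-nd4l, a subunit of mitochondrial complex I, at -0.91. Of the genes described above, Mog stood at 0.82, Fkbp5 at 0.72, Pfkl at 0.63, Mbp at 0.60, Enpp6 at 0.57 and Adamts4 at 0.53. By Spearman's rank correlation Mbp, Enpp6 and Adamts4 were lower, at 0.43, 0.34 and 0.33. Stmn2 stood at 0.52, Pdgfra at 0.41 and Gad1 at 0.27. Agps, Slc25a13, Cspg4 and Map2 lay between -0.07 and -0.01, and Lpin3 stood at -0.41. Pck2 stood at -0.74, Atf4 at -0.86 and Atf3 at -0.88. Sdf2l1, a component of chaperone complexes of the endoplasmic reticulum, was the named gene with the highest r, 0.91, and was picked after its value was seen. DTG treatment is 1 of the differences between these libraries, so the values include the response that chose Gpd1.

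**Figure D5:**
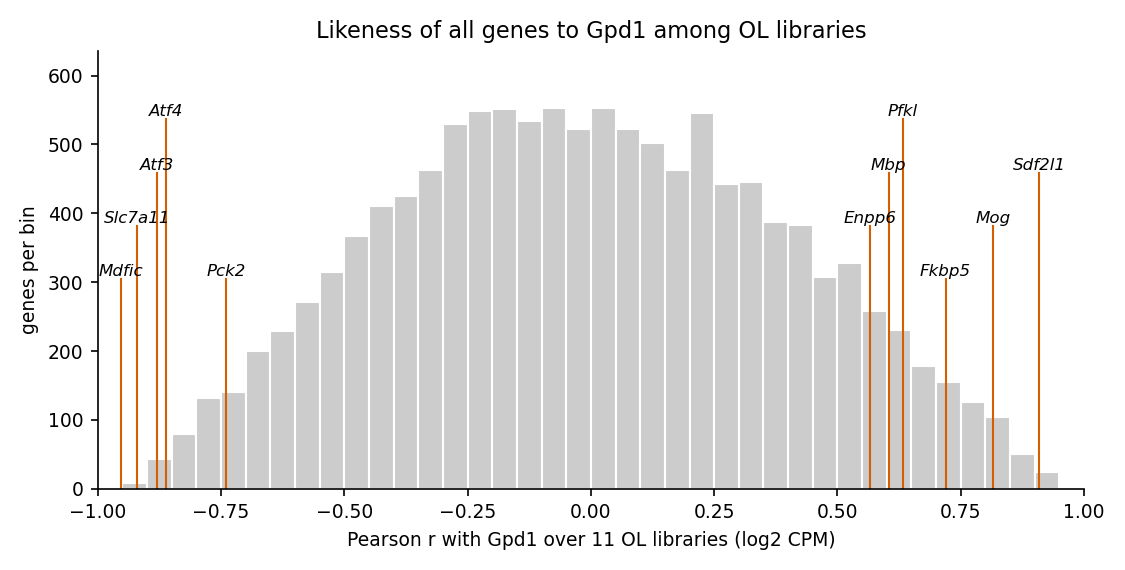
Number of genes by Pearson's r of their log2 CPM with Gpd1 over 11 OL libraries, with genes of the text marked. Mdfic, Slc7a11, Atf3 and Atf4 lie in the left tail between -0.95 and -0.86, and Mog and Sdf2l1 in the right tail at 0.82 and 0.91.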

How the data were processed

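RNA of 24 libraries was analysed. According to the paper and the submitters' processing notes, the authors enriched poly(A) RNA, prepared libraries with the NEBNext Ultra II kit, sequenced paired ends, converted reads with bcl2fastq 2.20, aligned them with STAR 2.5.2b to Rnor_6.0 and counted unique reads on exons with featureCounts (Subread 1.5.2). The strand setting of the counting was not given in the sources used here. The authors deposited whole-number counts per gene and library without normalization, with 92 ERCC transcripts in the same files.

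The software was R 4.3.3 with the packages edgeR 4.0.16, DESeq2 1.42.0 and limma 3.58.1, and plots were made in Python with matplotlib. Each comparison used the 8 libraries of its groups, filterByExpr, TMM scaling and the quasi-likelihood F test without covariates, with Benjamini-Hochberg adjustment over all genes tested. Comparisons with untreated cells were limited to 21651 identifiers. The test was checked on simulated counts with known changes. Gpd1 had 53 to 144 counts in OPC libraries, where its coefficient of variation between cultures was 29.6% to 39.1%, and 4 libraries against 4 allow an exact permutation p no lower than 0.0286.

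Gpd1, the lists and the rule for named genes were chosen with earlier results of these data known. The rule covers Gpd1, matched genes of the glycerol 3-phosphate, ether lipid and malate-aspartate lists, called members and the largest changes of the other lists, and the 10 highest and 5 lowest r. Symbols came from the paper's supplementary tables, whose columns of normalized values, fold changes and p-values were not used. Of the lists, those for glycerol channels, fatty acid synthesis and thyroid hormone response had 0 matched genes.

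According to the paper, replicates are independent litters. Same-numbered libraries were taken as pairs because their library names share a date and letter across conditions, replicates 2 and 3 having 1 date and different letters; the sources do not say outright that these are the same litter. The correlation across genes of same-numbered libraries' deviations from their group means was 0.43, 0.40, 0.40 and 0.00 between DMSO-treated and DTG-treated OLs, 0.73, -0.08, 0.59 and 0.82 in OPCs, 0.54, 0.27, 0.68 and 0.30 between untreated stages, where both libraries of culture 3 share the other annotation, 0.37, 0.05, 0.10 and 0.50 between DMSO-treated stages and 0.33, -0.05, 0.09 and -0.34 between DTG-treated stages. The same correlation was positive in every pair of the comparisons with untreated cells of the same stage. Between DMSO-treated and untreated OPCs it was 0.55, 0.54, 0.56 and 0.71. Between DTG-treated and untreated OLs it was 0.45, 0.31, 0.20 and 0.47, and between DMSO-treated and untreated OLs 0.40, 0.26, 0.09 and 0.22. The deviations thus went together in some comparisons but not in every pair, and the pairing was taken from the library names.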

Additional observations from a re-analysis of the deposited data

How the results depend on the processing

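The results were recomputed with DESeq2 (as a test, and for size factors alone), ERCC or total scaling, no filter on low counts, 1 fit for all libraries, a replicate block, no minimum fold change, and libraries left out. The rise of Gpd1 in untreated OLs kept its call under each that applies to it.

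Scaling to ERCC counts changed Gpd1 in the comparisons of DTG-treated with DMSO-treated cells and of OLs with OPCs. Its log2 fold change became 0.41 (opposite sign) in DTG-treated against DMSO-treated OPCs, -0.70 in DTG-treated against DMSO-treated OLs, 1.93 in DMSO-treated OLs against OPCs and 0.76 in DTG-treated OLs against OPCs. It called 19 genes in DTG-treated against DMSO-treated OLs, all higher, 63 in DMSO-treated against untreated OLs, all lower, 6962 (266 higher, 6696 lower) in DMSO-treated OLs against OPCs and 8526 (487 higher, 8039 lower) in DTG-treated OLs against OPCs. In these comparisons the cause was not tested.

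DESeq2 called 129 genes in DTG-treated against DMSO-treated OLs and 106 against untreated OLs. With the replicate block these counts were 173 and 107, in place of 74 and 33, and the log2 fold change of Gpd1 was -1.19 and -0.63. In untreated OLs against OPCs it was 2.46 with the block. Beside the calls of Slc25a13, Mog, Mbp, Enpp6 and Adamts4, the block changed no other call among the 18 genes recomputed between untreated stages and the 8 between DTG-treated and DMSO-treated OLs. All libraries in 1 fit called 53 genes in DTG-treated against untreated OLs. Without a minimum fold change, 4552 genes were called in untreated, 6941 in DMSO-treated and 8255 in DTG-treated differentiation, and 112 in DTG-treated against DMSO-treated OLs.

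With each library left out in turn, Gpd1 ranged from 2.30 to 2.61 in untreated, 2.97 to 3.35 in DMSO-treated and 1.80 to 2.27 in DTG-treated differentiation, from -1.36 to -1.10 in DTG-treated against DMSO-treated OLs, from -0.82 to -0.54 in DTG-treated and 0.35 to 0.65 in DMSO-treated against untreated OLs, from -0.36 (without DTG-treated replicate 3) to 0.11 (without DTG-treated replicate 1) in DTG-treated against DMSO-treated OPCs, and from -0.32 to 0.053 in DMSO-treated against untreated OPCs. The sign in OPCs therefore rested on single libraries. Counts of genes ranged from 2656 to 3291, 3716 to 5278 and 4641 to 6004 in the 3 stage comparisons, from 28 (without DMSO-treated replicate 2) to 94 in DTG-treated against DMSO-treated OLs and from 5 (without DTG-treated replicate 1) to 41 in DTG-treated against untreated OLs, and were 0 in the other 3.

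Of 408 values of these genes, 351 kept direction and call, 49 lost and 8 gained a call, and 0 changed direction. By Spearman's rank correlation, 7 of the 10 genes most like Gpd1 were shared over 22 libraries and 3 of 10 within OLs. Gpd1 had its lowest counts in OPCs, 53 in 1 library.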
